A study of Mus musculus with 10 samples.

Results

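*Cnmd*-rich chondrocytes of the *Grem1* lineage were compared by whether a transcript of *Fgfr3* was counted in the cell. *Cnmd* encodes chondromodulin, an angiostatic protein of avascular cartilage. A cell was a member where at least 350 genes had a unique molecular identifier (UMI, a tag that lets PCR copies of a molecule be counted once), where *Cnmd* took at least 1% of its UMIs, and where *Cnmd* exceeded the sum of *Clu*, *Cilp* and *1500015O10Rik*, which are high in articular cartilage. Of 768 *Grem1*-lineage wells, 684 passed the gene minimum and 245 were *Cnmd*-rich, of which 131 held an *Fgfr3* UMI and 114 held none. The whole series has 930 wells, 162 of them of the *Lepr* lineage.

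FGFR3 is a receptor tyrosine kinase of chondrocytes. It binds fibroblast growth factors (FGFs), FGF18 and FGF9 among them, and signals through the MAP kinase pathway among others. In the growth plate (GP), FGFR3 is known as a brake on bone growth: its signal slows the proliferation and hypertrophy of columnar chondrocytes, and activating mutations cause achondroplasia. In articular cartilage (AC), FGF18 is known to act through FGFR3 and to favour matrix production.

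The cells came from hind limbs of *Grem1-TdT* mice on the C57BL/6 background, in which tamoxifen lets a *Grem1*-driven CreERT turn on TdTomato, so that cells expressing *Grem1* at that time and their descendants are marked. The mice were 5 to 6 weeks old when tamoxifen chow began, and it was given for 2 weeks. Cells positive for TdTomato and negative for the dead-cell dye DAPI were sorted one to a well. Both groups shared all of this, since they were cells of the same 8 plates and differed only in the *Fgfr3* count. AC and GP had been excised, but the labels do not say from which tissue the cells of a plate came, nor how many mice a plate holds, so p-values here measure the spread between plates. The gene table is in alphabetical order and was complete up to *Gm5763*. Later symbols, among them *Grem1*, *Sox9*, *Prg4*, *Matn3*, *Mia*, *Mmp13* and the Sprouty genes, were not analysed here.

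The cells were selected on measured values, the counts of *Cnmd*, of the 3 articular genes, of *Fgfr3* and of genes per cell, which are given as a description. *Cnmd* took from 1.01% to 5.58% of a member's UMIs with a median of 2.64%. The highest of the 21 kept cells under this limit that were above the articular sum had 0.932%. By the other criterion, the members nearest to the limit had 5 more *Cnmd* UMIs than articular UMIs, and 30 kept cells had enough *Cnmd* but did not exceed the articular sum, the closest by 1 UMI. *Cnmd* summed to a mean of 27530 CPM (a gene's counts scaled to a common total) with *Fgfr3* and 26990 CPM without. Over the 8 plates, the articular genes were at 1208 and 1353 CPM for *Clu*, 664.9 and 789.4 CPM for *Cilp*, and 2854 and 3248 CPM for *1500015O10Rik*, with and without *Fgfr3*. All 245 cells held *Col2a1* and *Acan*, and *Epyc*, a small proteoglycan of growth cartilage, was counted in 114 of the 131 cells with *Fgfr3* and 81 of the 114 without. The listed blood cell markers together with *Cd74*, which is not on that list, took 1% of UMIs or more in 0 cells with and 3 cells without *Fgfr3*. Each plate used the same 96 well barcodes, and no pair of plate and barcode occurred more than once.

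*Fgfr3* (chr5:33721674-33737068, plus strand of GRCm38; its exons overlap those of *G630022F23Rik* on the other strand) was a rare transcript, with 201 UMIs in the 245 cells and at most 4 in a cell. No UMI was counted in 114 cells, 1 UMI in 82, and 2 or more in 49, of which 33 had 2. One share of UMIs for every *Cnmd*-rich cell was set from these same counts, so the expected total equals the observed one. At that share in every cell, counting alone would have given 113.2, 82.4 and 49.4 cells. The observed numbers differ from these by less than 1 cell each. These counts formed the groups and are a description. The comparison below is between cells in which *Fgfr3* was counted and cells in which it was not, and a count of 0 does not show that the transcript was absent.

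**Figure D1:**
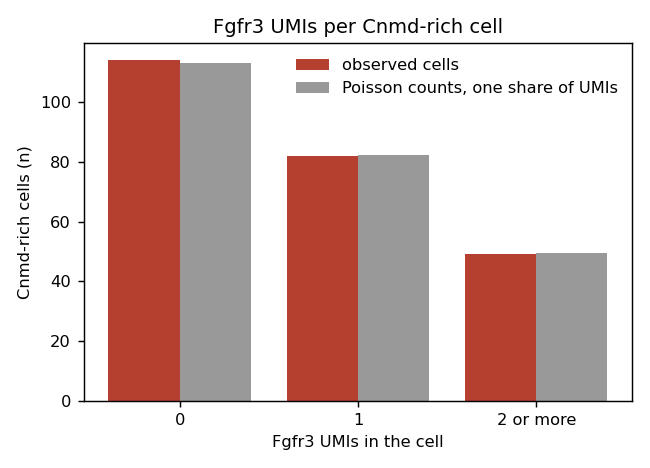
Number of *Cnmd*-rich cells (y axis) with 0, 1 and 2 or more *Fgfr3* UMIs (x axis), observed and as given by Poisson counting at one share of UMIs in every cell. That share was set from the same counts. The observed bars of 114, 82 and 49 cells stand beside expected values of 113.2, 82.4 and 49.4.

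An *Fgfr3* UMI was found in 53.5% of *Cnmd*-rich cells (95% Clopper-Pearson interval, 47.0 to 59.8%; median depth 2304 UMIs per cell). By plate, this share ranged from 48.28% on plate 1 to 62.96% on plate 7, with a mean of 53.4 ± 5.02% (SD, n = 8). In articular-like cells, in which the 3 articular genes took at least 1% of UMIs and were at least as high as *Cnmd*, it was 24.1% (20.03 to 28.6%; 97 of 402 cells, median 1205.5 UMIs). In *Lepr*-lineage cells, which were taken from whole bones, it was 0.625% (0.0158 to 3.43%; 1 of 160 cells, median 505 UMIs), and in the *Grem1*-lineage wells under the gene minimum 16.7% (9.42 to 26.4%; 14 of 84, median 501.5 UMIs). The depths of these groups differ, and *Lepr*-lineage cells were not compared at equal depth. For them the minimum of 350 genes was counted over all genes of their own table, so it was looser than for *Grem1*-lineage cells. When the cells of both cartilage groups were thinned to 802 UMIs, 17.4% of *Cnmd*-rich cells (12.8 to 22.7%; 42 of 242) and 18.5% of articular-like cells (14.5 to 23.1%; 63 of 340) held an *Fgfr3* UMI, so that the intervals overlapped; 3 and 62 shallower cells were left out. The thinned shares come from 1 random draw of UMIs, and their spread over repeated draws was not examined. They therefore do not settle which group held *Fgfr3* more often at equal depth. The intervals cover counting error only.

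Cells with *Fgfr3* were the deeper ones. Their median was 2452 UMIs and 1004 genes per cell, against 2047.5 UMIs and 871 genes without. Cells with 1 *Fgfr3* UMI had a median of 2343 UMIs and those with 2 or more 2661. By plate, the difference in log2 median UMIs, with minus without, was -0.27 on plate 8 and between 0.09 and 0.84 on the other 7, with a mean of 0.27 ± 0.33 (SD, n = 8; two-sided exact sign-flip permutation test, p = 0.047, smallest possible 0.0078). The difference in log2 median genes was 0.21 ± 0.28 (same exact test, p = 0.086; positive on 6 of 8 plates). The groups were made by counting *Fgfr3* in these same cells, so the depth gap is given as a description of the groups, and its cause was not tested.

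**Figure D2:**
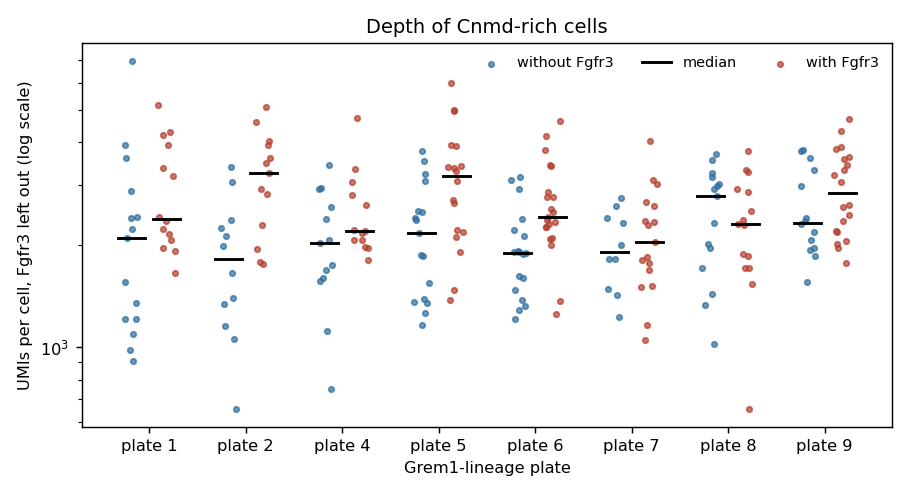
UMIs per *Cnmd*-rich cell (log scale, *Fgfr3* left out) by *Grem1*-lineage plate, each point 1 cell without (blue) or with (red) *Fgfr3*, lines at medians. The median with *Fgfr3* is above that without on 7 of 8 plates, and plate 8 has the opposite order.

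For gene expression, UMIs were summed per plate and group, giving 16 sums of 10 to 21 cells and 19797 to 59066 UMIs, from which *Fgfr3* was left out. No gene passed the test between cells with and without *Fgfr3*. Of 532 genes tested, 0 were called (0% of those tested; edgeR's quasi-likelihood test with the plate as a block, Benjamini-Hochberg adjusted p under 0.05, lowest adjusted p 0.27), and DESeq2 likewise called 0. At an unadjusted p under 0.05 there were 44 genes with edgeR (8.27%) and 19 with DESeq2; of the 44, 12 were higher with *Fgfr3* (2.26%) and 32 lower (6.02%). Fold changes on the log2 scale, with minus without, lay between -1.06 and 0.86, with quartiles at -0.17 and 0.15, and 263 of 532 were above 0 (49.4%). The 95% interval of the fold change stayed within 2-fold in either direction for 504 of 532 genes (94.7%) and within 1.5-fold for 292. In counts simulated for these 532 genes, 200 were changed. There edgeR recovered 63% of genes changed 1.5-fold, 96.7% of those changed 2-fold and 100% of those changed 4-fold. The adjusted threshold is stricter where fewer genes change, so these shares do not give the recovery for a contrast with few changed genes. As no gene passed, every value for a named gene in this contrast is given as a measurement that did not pass.

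**Figure D3:**
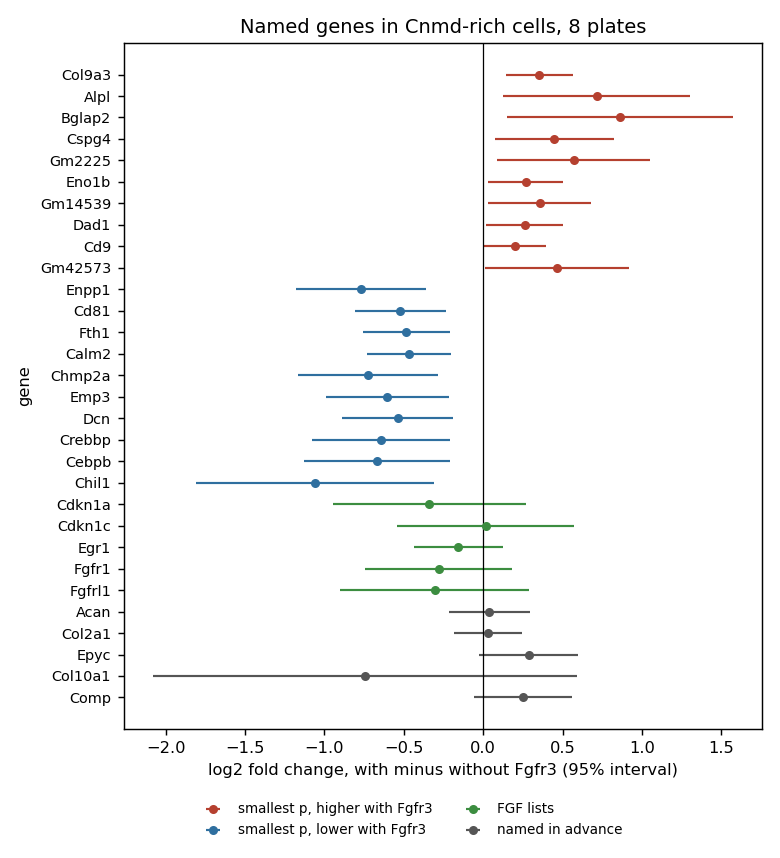
Log2 fold change with minus without *Fgfr3* (x axis, points) and its 95% interval (bars) for 30 named genes in sums of *Cnmd*-rich cells of 8 plates; colours give the reason a gene was named. Intervals of the 20 genes chosen for small p lie off 0 and none passed the adjusted threshold, while *Acan* and *Col2a1* are close to 0 with short intervals.

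Among the genes of the growth cartilage matrix, *Col2a1* and *Acan* were at close levels in both groups. *Col2a1*, the main fibrillar collagen of cartilage, had sums of 61010 to 100600 CPM with *Fgfr3* (median 73650) and 62980 to 80330 CPM without (median 71370). *Acan*, the large aggregating proteoglycan, ranged from 5044 to 8161 CPM with (median 6634) and from 3365 to 9509 CPM without (median 6757). The groups overlapped for both genes, and the log2 fold changes were 0.03 (95% interval, -0.19 to 0.24) and 0.04 (-0.22 to 0.29). *Col9a3*, a chain of type IX collagen that coats type II fibrils, had the smallest p of the genes higher with *Fgfr3*. It ranged from 5779 to 9252 CPM with *Fgfr3* (median 6894) and from 4225 to 7159 CPM without (median 5731). The ranges overlapped, but the sum with *Fgfr3* was the higher one on 8 of 8 plates, which held for 4 of 532 genes (0.752%). Its log2 fold change was 0.35 (SE 0.098, edgeR adjusted p = 0.28), and 0.25 in thinned cells. The other type IX chains were at 0.10 for *Col9a1* and 0.04 for *Col9a2*. Exons of *Col9a3* (chr2:180597790-180622189, plus strand) overlap those of *Tcfl5* on the other strand, and the sources used here do not say whether counting used strand.

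*Epyc* was at 959 to 1702 CPM with *Fgfr3* (median 1250) and 797.7 to 1641 CPM without (median 1010), a log2 fold change of 0.29 (-0.03 to 0.60) that was -0.05 with depth per cell as a covariate. *Comp*, a matrix bridging protein, gave 0.25 (-0.06 to 0.56). Both were higher on 6 of 8 plates and neither passed. Of the list of columnar and proliferating zone genes, 13 of 13 analysed genes were tested, 0 were called, 11 were above 0 and 2 below. The median log2 fold change was 0.09, beside a median of 0 for all genes tested, of which 49.4% were above 0. The exceptions were *Chad*, chondroadherin, at -0.21 and *Cytl1*, a small secreted protein of cartilage, at -0.48. In deeper minus shallower cells without *Fgfr3*, a comparison described below, the same 11 genes were above 0 and the same 2 below. There *Col11a1* was at 0.65, *Col2a1* at 0.31, *Chad* at -0.32 and *Cytl1* at -1.01. The part of depth in the values of this list was not tested. In the broader cartilage matrix list, which holds these 13 genes too, 20 of 21 were tested, 13 were above 0 and 7 below, and the median was 0.03.

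Genes of hypertrophy and mineralisation lay on both sides of 0. *Alpl*, tissue-nonspecific alkaline phosphatase, which releases phosphate for mineral, was at 338.3 to 1260 CPM with *Fgfr3* (median 644) and at 109.3 to 679.5 CPM without (median 408.4). It was higher on 7 of 8 plates, most on plate 6, where 67 UMIs faced 7, and lower on plate 8. Its log2 fold change was 0.71 (0.13 to 1.30, edgeR adjusted p = 0.52). In cells with 0, 1 and 2 or more *Fgfr3* UMIs, *Alpl* was at 405.7 ± 234.4, 890.9 ± 368.5 and 387.9 ± 421.3 CPM (mean and SD over plates). The higher level was thus seen at 1 UMI and not at 2 or more. *Enpp1*, which makes pyrophosphate, an inhibitor of mineral growth, had the smallest p of all genes: it was at 104.9 to 283.5 CPM with *Fgfr3* (median 244.1) and 171.5 to 620.5 CPM without (median 362.2). It was lower on 8 of 8 plates, as were 5 of 532 genes (0.94%), with a log2 fold change of -0.77 (-1.18 to -0.36, edgeR adjusted p = 0.27), but rested on 79 and 91 UMIs and was -0.15 in thinned cells and -0.30 with depth per cell as a covariate. *Col10a1*, the collagen of hypertrophic chondrocytes, spread widest, from 140.9 to 2191 CPM with *Fgfr3* and from 34.92 to 6175 CPM without. The highest sums without *Fgfr3* were 3178 CPM on plate 1 and 6175 CPM on plate 5, and its log2 fold change of -0.74 (-2.08 to 0.59) became -0.20 without plate 1 and -0.09 without plate 5, and turned to 0.60 in cells with at least 2% *Cnmd*. On 6 of 8 plates *Col10a1* was the higher with *Fgfr3*. Over the prehypertrophic and hypertrophic list, 9 of 32 genes were analysed, 4 tested, 2 above 0 and 2 below.

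**Figure D4:**
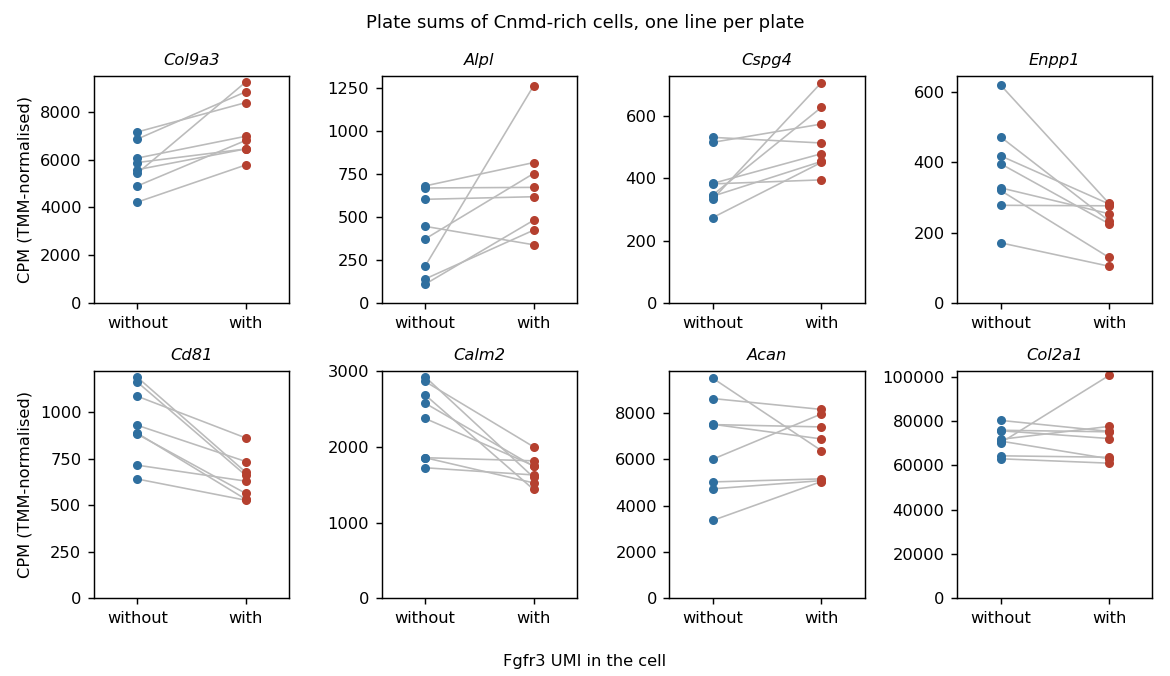
TMM-normalised CPM (y axes) of 8 genes in sums of *Cnmd*-rich cells without and with *Fgfr3*, each line 1 plate. All lines rise for *Col9a3* and all fall for *Enpp1*, *Cd81* and *Calm2*, whereas lines cross for *Acan* and *Col2a1*; no gene passed the adjusted test.

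Osteoblast genes were present in some cells of both groups. *Bglap2*, osteocalcin, gave the highest fold change of all (0.86, 95% interval 0.15 to 1.58, edgeR adjusted p = 0.52), from sums of 0 to 1992 CPM with *Fgfr3* (median 526.6) and 0 to 723.4 CPM without (median 268.9). Its UMIs lay in 74 cells, 110 of 338 in the top 3. In cells with 0, 1 and 2 or more *Fgfr3* UMIs, it was at 324.9 ± 279.8, 823.4 ± 778.1 and 376.9 ± 623.7 CPM (mean and SD over plates). *Bglap2* is nearly identical to *Bglap* and *Bglap3*, between which reads could be split. Those copies were at 0.20 and 0.27. Of the osteoblast list, 5 of 8 analysed genes were tested, 4 above 0 and 1 below. The summed level of all 8 ranged from 849.3 to 13850 CPM with *Fgfr3* and from 1232 to 8108 CPM without, and was higher with *Fgfr3* on 3 of 8 plates. The part of osteoblast transcripts in the value of *Alpl*, which this list also holds, was not tested.

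Other genes with small p are named here by rule and likewise did not pass. Among those lower with *Fgfr3*, *Cd81*, a tetraspanin, was at 526.5 to 861 CPM with (median 644.3) and 640.4 to 1187 CPM without (median 907.7), and *Calm2*, one of the calmodulin genes, at 1438 to 2002 CPM with (median 1687) and 1725 to 2928 CPM without (median 2478). Both were lower on 8 of 8 plates, with log2 fold changes of -0.52 and -0.47 that kept their sign in thinned cells at -0.78 and -0.36. The iron store *Fth1* was at -0.48, the membrane-remodelling gene *Chmp2a* at -0.72, *Emp3*, a membrane protein, at -0.60, and the transcription regulators *Crebbp* and *Cebpb* at -0.64 and -0.67. *Dcn*, decorin, a small proteoglycan that binds collagen, was at 1021 to 2593 CPM with (median 1483) and 1476 to 3317 CPM without (median 2265), a log2 fold change of -0.54 (edgeR adjusted p = 0.34). With depth per cell as a covariate, *Dcn* turned to 0.09 and *Cebpb* to 0.02, while *Cd81* was at -0.30 and *Calm2* at -0.24. *Chil1*, a chitinase-like secreted protein, had the lowest value, -1.06 (-1.81 to -0.31), from 21.65 to 621.4 CPM with and 278.2 to 1058 CPM without. On the other side, *Cspg4*, the NG2 proteoglycan, was at 0.45, *Dad1*, a subunit of the oligosaccharyltransferase, at 0.26 and the tetraspanin *Cd9* at 0.20, the last pair on 8 of 8 plates. *Eno1b*, *Gm14539*, *Gm2225* and *Gm42573*, at 0.27 to 0.57, are copies or processed pseudogenes of other genes, and their counts are uncertain.

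The FGF genes gave no call. *Fgfr1*, the other receptor of note in cartilage, was counted in 73 of 131 cells with *Fgfr3* and 61 of 114 without. Its sums were 254.2 to 830.3 CPM with (median 374.7) and 300.9 to 908.1 CPM without (median 489.9), a log2 fold change of -0.28 (-0.74 to 0.18) that turned to 0.10 in thinned cells. *Fgfrl1*, a receptor-like protein without a kinase domain, was at -0.31 (-0.90 to 0.29), and at 0.13 with depth per cell as a covariate. *Fgfr2* had 7 UMIs with and 12 without, and *Fgfr4* 0 and 3. Ligands were close to absent from these cells: *Fgf1* had 5 and 4 UMIs, *Fgf2* 5 and 9, *Fgf7* 1 and 0, *Fgf9* 0 and 1 and *Fgf22* 1 and 0, while *Fgf10*, *Fgf16*, *Fgf18* and *Fgf20* had 0, for which 3 UMIs per group is the limit that a count of 0 allows. In all, 15 of the 24 listed receptors, ligands and cofactors were analysed and 2 tested, both below 0.

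Genes that respond to FGF receptor signalling were mostly too low to test. *Egr1*, an immediate early transcription factor, was at 995.8 to 4852 CPM with *Fgfr3* (median 3652) and 1335 to 5703 CPM without (median 2946), a log2 fold change of -0.16 (-0.43 to 0.12) that turned to 0.26 with depth per cell as a covariate. *Cdkn1a*, the cell cycle inhibitor p21, was at -0.34 (-0.95 to 0.27), and the related inhibitor *Cdkn1c* at 0.01 (-0.55 to 0.57). The feedback phosphatase *Dusp6* had 4 UMIs with *Fgfr3* and 5 without, the ETS factors *Etv1*, *Etv4* and *Etv5* had 2, 0 and 5 with and 0, 0 and 6 without, and *Dusp5* had 76 and 52. Of 29 listed genes 13 were analysed and 3 tested, with 0 called, 1 above 0 and 2 below. For the 5 tested genes of both FGF lists together, each 95% interval includes 0 and the widest reaches from -0.95 to 0.27.

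Genes from other lists completed the comparison, again with 0 called in each. Articular cartilage markers were below 0 in 5 of 5 tested genes (median -0.30), but 3 of these are the genes the cells were chosen against; the others were *Crip1* at -0.41 and *Fn1* at -0.46. *Foxo1*, a transcription factor of articular chondrocytes, was too low to test, with 51 UMIs in 38 cells with *Fgfr3* and 29 in 21 cells without. Of the resting zone markers, *Apoe* was at -0.75, and the other one tested, *Clu*, at -0.23, is a gene the cells were chosen against. *Cd200*, a marker of skeletal stem cells, had 93 and 82 UMIs and did not pass the filter, which asks for counts in enough of the plate sums. Immediate early genes were below 0 in 6 of 7 (median -0.22), with *Fos* at -0.18 and *Btg2* at -0.32. The 3 tested chondroitin sulfate genes were below 0 (median -0.23). Oxidative phosphorylation had 13 of 23 above 0 (median 0.03), folding genes 2 of 5, cell cycle genes 2 of 3, glycolysis genes 2 of 2, and BMP and hedgehog genes 1 of 1. Markers of marrow stroma, blood and endothelium had no gene past the filter, with summed levels of 0 to 109, 91 to 429.6 and 0 to 17.58 CPM with *Fgfr3* and 0 to 89.34, 0 to 5693 and 0 CPM without.

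Without the filter on low counts, 7 of 10580 genes were called (0.0662%), chosen here after their values were seen, and 3 of them are leucocyte genes lower with *Fgfr3*. *Elane*, neutrophil elastase, had 166 of its 185 UMIs in a single cell of plate 1, *Cd74*, the invariant chain, 136 of 247 in one cell of that plate, and *Fcnb*, a ficolin, 30 of 32. *Gm42836*, *Gm10800* and *Gm10801* had 25 of 87, 122 of 289 and 91 of 214 UMIs in their top cell. *Col9a3* was the remaining call and was spread over the cells: it had 2709 UMIs in 131 of 131 cells with *Fgfr3* and 1410 in 113 of 114 without, and its log2 fold change in this fit was 0.51 (edgeR adjusted p = 0.015). The call was thus lost with the usual filter, under which the adjusted p was 0.28.

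A difference appeared when the limit was raised to 2 *Fgfr3* UMIs. This limit had been planned as an alternative for the main count of genes, and its use as a separate result was not planned. On the 7 plates with at least 5 cells at this limit (5 to 9 per plate), these cells were compared with the cells without *Fgfr3*. Of 330 genes, 4 were called (1.21%), all lower, with 39 genes (11.8%) at an unadjusted p under 0.05. *Fn1* (chr1:71585520-71653200, minus strand), fibronectin, a matrix glycoprotein of early and surface cartilage, was at 1865 to 7297 CPM with 2 or more UMIs (median 5041) and 5035 to 16150 CPM without (median 8098). *Dcn* (chr10:97479609-97518143, plus strand) was at 877.6 to 1943 CPM (median 1201) and 1465 to 3518 CPM (median 2307), *Emp3* (chr7:45918023-45921404, minus strand) at 153.6 to 569.2 CPM (median 369.5) and 325.6 to 1056 CPM (median 698.2), and *Cst3* (chr2:148871722-148875692, minus strand), the secreted protease inhibitor cystatin C, at 3071 to 11310 CPM (median 7474) and 8354 to 17460 CPM (median 10870). The ranges overlapped for each gene, as they did for all 330 tested, but each was lower on 7 of 7 plates. On plate 8, left out with 4 cells at this limit, each of the 4 genes was higher at 2 or more UMIs. In the sums by class described below, *Fn1* was there at 4251 CPM against 3016 CPM without *Fgfr3*. *Dcn* was at 1771 against 1576 CPM, *Emp3* at 472.4 against 298.9 CPM and *Cst3* at 15120 against 10190 CPM. Over the 7 plates, the log2 fold changes were -1.09 for *Fn1* (edgeR adjusted p = 0.0011), -0.89 for *Dcn* (0.012), -1.10 for *Emp3* (0.013) and -0.82 for *Cst3* (0.014). Type II collagen and aggrecan were at -0.02 each, *Epyc* at 0.50 and *Cytl1* at -0.64, none past the test, and of 20 tested matrix genes 2 were called (*Fn1*, *Dcn*) and 13 were below 0. Articular cartilage markers, a list that also holds *Fn1*, were below 0 in 5 of 5 tested genes (median -0.51), with *Cilp* at -0.60, *Clu* at -0.51 and *1500015O10Rik* at -0.33, which are the genes the cells were chosen against. Their part in the calls was not tested.

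These calls rest on few cells and on the settings. DESeq2 called 3 of the 4, without *Emp3* (DESeq2 adjusted p = 0.22). None remained without the plate as a block, with plate 8 and its 4 cells included (*Fn1* -0.92, edgeR adjusted p = 0.057), or with depth per cell as a covariate, where *Fn1* was at -0.47, *Dcn* at -0.26, *Emp3* at -1.12 and *Cst3* at 0.11. In cells thinned to 1351 UMIs, *Fn1* alone was called, at -0.84 (edgeR adjusted p = 0.0055, 126 genes tested). *Fn1* was also the 1 gene called when plate 2 was left out and in plates 5 to 9 alone.

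Cells with 0, 1 and 2 or more UMIs were also summed as 3 classes on all 8 plates. The order of the classes differed between plates: on plate 8, *Dcn* was at 1576, 1703 and 1771 CPM. Over plates, *Dcn* was at 2316 ± 661.1, 1832 ± 687.1 and 1362 ± 394.6 CPM (SD, n = 8) and was the 1 gene of 427 called (0.234%), with a log2 change of -0.40 per step (edgeR adjusted p = 0.046), a call that was lost when any one of plates 1, 2, 4, 5, 6 or 9 was left out. There were 53 genes (12.4%) at an unadjusted p under 0.05. *Fn1* went from 9094 ± 4495 to 8131 ± 4626 and 4607 ± 1616 CPM, and *Emp3* from 693.4 ± 286.9 to 541.8 ± 239.2 and 360.2 ± 144.5 CPM, neither past the test. From 0 to 1 UMI, the direction for *Fn1* differed between plates. It fell on plates 1, 2, 5, 6 and 9, on plate 5 from 14990 to 8942 CPM. On plate 4 it was level, at 7858 and 7894 CPM. It rose from 7914 to 16600 CPM on plate 7 and from 3016 to 7707 CPM on plate 8.

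**Figure D5:**
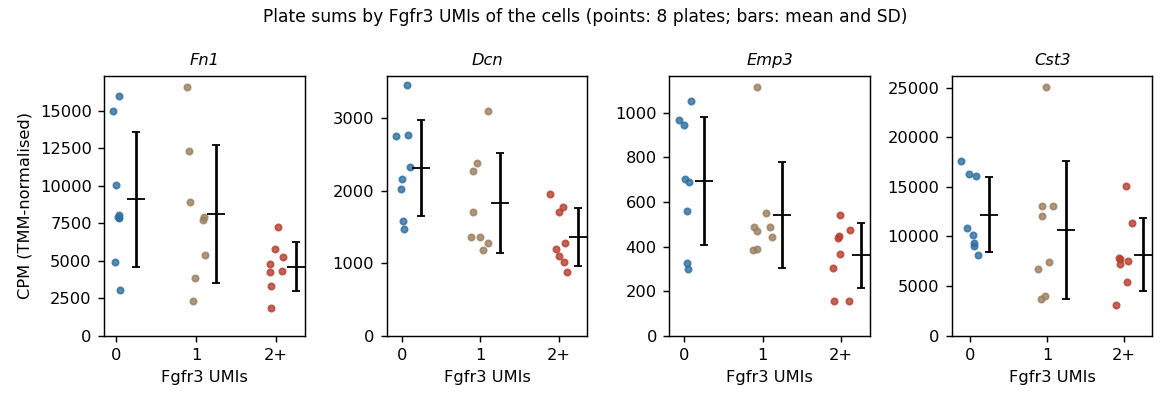
TMM-normalised CPM (y axes) of *Fn1*, *Dcn*, *Emp3* and *Cst3* in sums of *Cnmd*-rich cells with 0, 1 and 2 or more *Fgfr3* UMIs; points are 8 plates, bars the mean and SD. Mean levels are lowest at 2 or more UMIs, and points of neighbouring classes overlap for each gene.

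Since depth differed with *Fgfr3*, the same genes were examined across depth in cells in which *Fgfr3* was not counted. A count of 0 does not show that the transcript was absent, so this comparison does not remove *Fgfr3*. Cells without *Fgfr3* were split at the median depth of their plate, and the sums of the deeper cells were compared with those of the shallower ones. Of 170 genes tested, 3 were called (1.76%), all lower in deeper cells, with 35 (20.6%) at an unadjusted p under 0.05. They were *Apoe*, apolipoprotein E, at 994.7 CPM in deep and 4104 CPM in shallow cells, *Cst3* at 6896 and 20850 CPM, and *Cytl1* at 18930 and 40030 CPM, with log2 fold changes of -2.004, -1.57 and -1.01 (edgeR adjusted p = 9e-05, 0.00011 and 0.0082). *Dcn* was at -0.84 (edgeR adjusted p = 0.054), *Fn1* at -0.37 (0.44), *Col9a3* at 0.39 (0.12), *Cd81* at -0.42 (0.29) and *Calm2* at 0.01 (0.99), and *Emp3*, *Enpp1* and *Alpl* were too low to test. The same genes with at least 2 *Fgfr3* UMIs against none were at -1.03 for *Apoe*, -0.82 for *Cst3*, -0.64 for *Cytl1*, -0.89 for *Dcn*, -1.09 for *Fn1*, 0.27 for *Col9a3* and -0.57 for *Calm2*. Both comparisons share the cells without *Fgfr3*, so the values stand side by side only.

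The *Fgfr3* contrast was last set beside that of articular-like cells, 97 with and 305 without *Fgfr3*, in which 0 of 397 genes were called (0%; 38 genes, 9.57%, at an unadjusted p under 0.05). The difference between the contrasts was called for 0 of 716 genes (0%; edgeR interaction test, 57 genes, 7.96%, at an unadjusted p under 0.05). *Enpp1* had the smallest p, at -0.74 in *Cnmd*-rich and 0.28 in articular-like cells, a difference of -1.02 (SE 0.26, edgeR adjusted p = 0.41).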

How the data were processed

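Single cell UMI counts of 8 *Grem1*-lineage plates were used. The counts deposited by the authors are whole numbers and were not normalised. The submitters' processing notes name STAR, featureCounts, UMI-tools, SAMtools, Seurat and mm10, without roles; strand use in counting is not given in the sources used here. Of the table, 29183 gene rows were used and 1 incomplete row was left out. Symbols were matched to GENCODE M21 of GRCm38 (97.2% of tested genes). Doublets were not called, and the intervals of shares cover counting error only.

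Counts were summed per plate and group (at least 5 cells), *Fgfr3* left out, and tested with edgeR 4.0.16 in R 4.3.3 (TMM, filterByExpr, plate as a block, Benjamini-Hochberg at 0.05). DESeq2 1.42.0, other filters, limits, thinning to 1351 UMIs (the 10th percentile, 25 cells left out), a depth covariate, plate subsets and leaving out each plate were alternatives. CPM are TMM-normalised. Standard errors were derived from each fold change and its F statistic, so that they and the intervals are approximate. Sums of the same plate deviated together (mean correlation 0.374, 0.204 to 0.499, above 0.1 on 8 of 8 plates; different plates -0.0459), and the pairing comes from the plates in the labels.

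Members, lists and tests were chosen with earlier results of these data known. Named were the 10 genes per direction of smallest p with a mean of at least 50 CPM (no gene passed), the tested FGF genes, and *Acan*, *Col2a1*, *Epyc*, *Foxo1*, *Col10a1*, *Comp*, *Cd200* and the genes that chose the cells. Other named genes come from the lists or were chosen after their values were seen, as were the comparisons of 3 *Fgfr3* classes and of deep and shallow cells. The comparison at 2 or more *Fgfr3* UMIs was planned as an alternative only, and not as a separate result. On simulated counts for 532 genes, 200 of them changed, 3.03% of edgeR's calls and 1.7% of DESeq2's were false.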

Additional observations from a re-analysis of the deposited data

Results flagged for a closer look

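Of 82 groups of 7 or 8 plates examined, 4 held 1 plate that lay apart from the other 7, where chance gives about 1 in 20. *Col2a1* in cells with *Fgfr3* was highest on plate 6, at 1.006e+05 CPM beside 7.76e+04 CPM on the next plate. *Emp3* with *Fgfr3* was highest on plate 2, at 702 CPM (next 479.2 CPM), where the sum without *Fgfr3* was also the highest, at 1032 CPM. *Fgfr1* with *Fgfr3* was highest on plate 8, at 830.3 CPM (next 476.3 CPM). *Fgfr3* itself, summed over all *Cnmd*-rich cells of a plate, was highest on plate 7, at 477.6 CPM (next 367.8 CPM), the plate with the highest share of cells with *Fgfr3*.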

How the results depend on the processing

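The count of 0 genes between cells with and without *Fgfr3* held under 26 of 28 alternatives. It was 7 without the filter on low counts and 4 with at least 2 *Fgfr3* UMIs against 0; without the plate as a replicate block it was 0. For 30 named genes, 757 of 791 values under alternatives had the sign of the reported value, and 17 genes had one sign throughout. The 4 calls at 2 or more UMIs became 0 without the block, 0 with plate 8 included, 0 with the depth covariate (*Cst3* reversed to 0.11), 1 in thinned cells, 1 in plates 5 to 9, 7 in plates 1, 2 and 4, 19 without the filter, and 1 (without plate 2) to 8 (without plate 9) with a plate left out. The call of 1 gene over 3 classes became 0 without the block, thinned or with the covariate, and 0 to 4 with a plate left out. The difference from articular-like cells became 13 calls without the filter and 1 (0 to 1 with a plate left out) without plate 8. The depth difference of 0.27 ranged from 0.19 to 0.35 with a plate left out, and the exact permutation p rose above 0.05 without any one of 7 plates (all but plate 8). The share of 53.5% became 38.6% in thinned cells (1 random draw), which have fewer UMIs and leave out 25 shallower cells. The causes were not tested. The depth limits genes to those with many UMIs: 532 of 29183 were tested.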
